A study of Mus musculus with 7 samples.

Results

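In mouse embryonic stem cells without Uhrf1, 443 single cytosine sites still carried methylation at 35% or more of their reads. They were chosen on the reads of both Uhrf1-/- libraries: each library had to cover the site with at least 10 reads, and methylated reads pooled over both had to reach 35% of all reads. Of 18189 sites listed with the rescue cells, 9373 had enough reads for this choice, and the other 8816 had fewer than 10 reads in a Uhrf1-/- library. The 443 sites are called kept sites below, and the 8930 others with enough reads are called the remaining sites. Since the Uhrf1-/- reads made the choice, the Uhrf1-/- levels of these sites are given as a description and were not tested.

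Reduced representation bisulfite sequencing, which samples CpG-rich restriction fragments, was applied to J1 embryonic stem cells grown in serum with leukemia inhibitory factor. Wild-type cells and Uhrf1-/- cells gave 2 libraries each. Each rescue gave 1 library, from Uhrf1-/- cells given flag-myc-tagged human UHRF1, either wild type (WTR clone) or with K667R, K668R and K670R (3KR clone). Both clones thus also lack the mouse gene. Rescue cells were selected with hygromycin and single colonies were picked, so each rescue is 1 clone and a difference between clones cannot be told apart from a difference between the proteins. The seventh library is from cells in which Mof was stably knocked down and whose own Uhrf1 the labels do not describe as changed.

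UHRF1 binds newly replicated DNA that is methylated on the old strand only, and brings in DNMT1, the enzyme that copies the mark onto the new strand. In embryonic stem cells the methyltransferases DNMT3A and DNMT3B can also add methylation to sites that carry none. MOF (KAT8) is a lysine acetyltransferase best known for acetylating histone H4.

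Sequence could be read for sites inside RefSeq promoter windows, which run from 250 bases before to 50 bases after a gene's start (GRCm38.p6, equal to mm10). These windows held 558 listed sites, and all 558 lay at a CG dinucleotide. Of 271 such sites with enough reads, 1 was kept. Its window is shown with that of Chadl, a cartilage protein gene, which was chosen for the largest fall among the windows searched. These had at least 2 sites with enough reads that were not kept. The search left out some such windows, so a larger fall elsewhere is not excluded. Capitals mark the CG dinucleotides that were measured.
2810405F15Rik, chr2:116076047-116076346, minus strand: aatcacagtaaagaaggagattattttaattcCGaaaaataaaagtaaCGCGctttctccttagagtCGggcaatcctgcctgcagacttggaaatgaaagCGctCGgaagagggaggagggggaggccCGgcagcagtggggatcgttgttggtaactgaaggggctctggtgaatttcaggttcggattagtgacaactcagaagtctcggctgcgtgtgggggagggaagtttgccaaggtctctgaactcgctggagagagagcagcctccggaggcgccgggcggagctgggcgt
Chadl, chr15:81697238-81697537, minus strand: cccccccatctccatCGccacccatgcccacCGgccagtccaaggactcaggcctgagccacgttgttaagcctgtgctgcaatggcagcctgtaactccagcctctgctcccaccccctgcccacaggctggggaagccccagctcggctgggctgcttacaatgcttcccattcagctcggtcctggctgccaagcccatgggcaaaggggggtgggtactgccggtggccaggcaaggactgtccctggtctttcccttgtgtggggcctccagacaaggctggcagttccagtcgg

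The kept site of the 2810405F15Rik window is the second CG of the capital CGCG, at chromosome 2 position 116076296, inside G630016G05Rik. It read 57.1% in each Uhrf1-/- library (8 of 14 reads in both), beside 22.2% and 19.05% in wild-type cells, 14.8% in the WTR clone, 9.09% in the 3KR clone and 21.4% in the Mof knockdown. The Uhrf1-/- libraries were thus the highest of all 7 here. The first CG of the same CGCG, only 2 bases away, read 0% and 42.9% in the Uhrf1-/- libraries, and the other 5 sites of the window lay between 0% and 15.4% there. The 2 Chadl sites were at 71.4% to 100% in wild type and at 7.14% to 18.2% in Uhrf1-/-. The 2810405F15Rik window holds 17 CG dinucleotides and the Chadl window 7, where the median of 32817 RefSeq windows is 7.

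Over the whole rescue table the libraries held 257860 to 668870 reads, with medians of 10 to 22 reads per site, and every listed site had at least 5. The Mof knockdown library had a median of 10 reads over 21989 sites, of which 12282 were also in the rescue table. At the kept sites the median depth was 16 and 14 reads in the Uhrf1-/- libraries, beside 18 and 15 at the remaining sites. Methylated read counts were even more often than odd: at sites with both kinds of reads, 65.6% to 77.6% of the counts per library were even, where reads counted one by one would give about 50%. At the kept sites 83.8% and 81.3% were even in the Uhrf1-/- libraries. The cause was not tested, but counting intervals take every read as separate and are then too narrow. Nothing in the labels says whether libraries of one group were separate cultures, so spreads and p-values describe these libraries.

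The kept sites were highly methylated in wild type and intermediate in Uhrf1-/-. Their mean level was 85.3% ± 0.0941 for wild type and 44.6% ± 0.867 for Uhrf1-/- (SD, n = 2 each). The pooled Uhrf1-/- level ran from 35% to 87.5% with a median of 41.7%, so most kept sites lay close to the threshold: 118 reached 50% and 12 reached 70%. A pooled level behind this choice rested on 20 to 325 reads, with a median of 30. The Wilson 95% interval of the pooled level lay wholly at or above 35% at 90 of the 443 sites and at or above 20% at 418.

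How often a site was kept varied with its wild-type level. Of sites with 90% to 100% methylation in wild type 12.8% were kept, of sites with 50% to 60% it was 3.33%, and of the 3109 sites below 10% it was 0.129%. In all, 334 kept sites were at 80% or more in wild type and 21 were under 50%. The levels and annotation of the remaining sites are therefore also given as weighted values, in which each 10-point class of the wild-type level counts as much as it does among the kept sites. Weighted in this way the remaining sites stood at 84.6% ± 1.31 for wild type and 12.5% ± 0.515 for Uhrf1-/- (SD, n = 2 each).

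Depth moved with the choice as well. Among sites at 80% or more in wild-type cells, 11.8% were kept where the shallower Uhrf1-/- library had 10 to 14 reads (Wilson 95% interval 10.5% to 13.3%). The share was 11.0% at 15 to 19 reads, 6.57% at 20 to 29 reads and 2.60% at 30 reads or more (interval 0.715% to 8.98%). With a minimum of 20 reads in each Uhrf1-/- library, 28 kept sites were left.

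**Figure D1:**
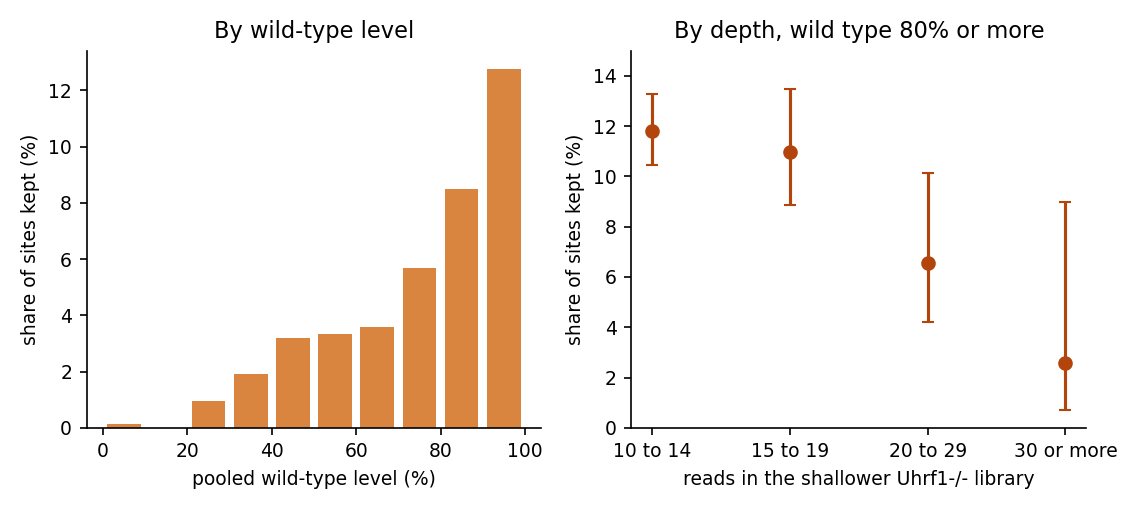
Share of sites kept (%), by pooled wild-type level in classes of 10 points (left) and, for sites at 80% or more in wild type, by reads in the shallower Uhrf1-/- library (right; points are shares, lines Wilson 95% intervals). The share rises to 12.8% in the highest wild-type class and falls to 2.60% at 30 reads or more.

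The kept sites rest on both Uhrf1-/- libraries, so neither library is free of that choice. Separately, sites were chosen on one Uhrf1-/- library alone and read in the other. This gave 592 sites on library 1 and 635 on library 2, sets that differ from the 443 kept sites. Sites with at least 10 reads in both and at least 35% in one library had a mean of 48.3% in that library. In the other library they stood at 26.0% ± 0.441. The sites not chosen in this way, weighted to the same wild-type level, stood at 13.7% ± 0.222. Both SDs are over the 2 directions, which share the same libraries. Among sites chosen on library 1, 29.4% also reached 35% in library 2, where 6.77% of all sites did. In the opposite direction the values were 27.4% and 6.32%. In all, 174 sites reached 35% in each library. Of the 443 kept sites, 11 were under 10% in one of the libraries.

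The kept sites also carried more methylation than the remaining sites in the 3 libraries that took no part in the choice. In the 3KR clone their mean was 43.1%, and that of the weighted remaining sites was 23.7%, a gap of 19.4 points. In the WTR clone the means were 78.8% and 70.9%, a gap of 7.84 points. In the Mof knockdown, at 300 kept and 6426 remaining sites listed in both tables, they were 77.0% and 69.5%, a gap of 7.49 points.

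The 3KR gap had the same direction on 19 of 19 autosomes, from 6.04 to 32.0 points, and the gaps in the WTR clone and in the knockdown were positive on 17 of 19. Each of these groups has 1 library, so the gaps have no replicate check. Medians showed the same order: 41.4% against 20% in the 3KR clone, 81.8% against 75% in the WTR clone and 83.3% against 75% in the knockdown. Without the weighting by wild-type level the gaps were 29.7, 36.2 and 39.6 points. With weights from 1 wild-type library alone the gaps were wider than with both. In the same order they were 20.4 and 20.6, 9.58 and 10.4, and 10.2 and 10.6 points. Such weights rest on fewer reads, and what counting error in the weights does to the gaps was not tested.

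**Figure D2:**
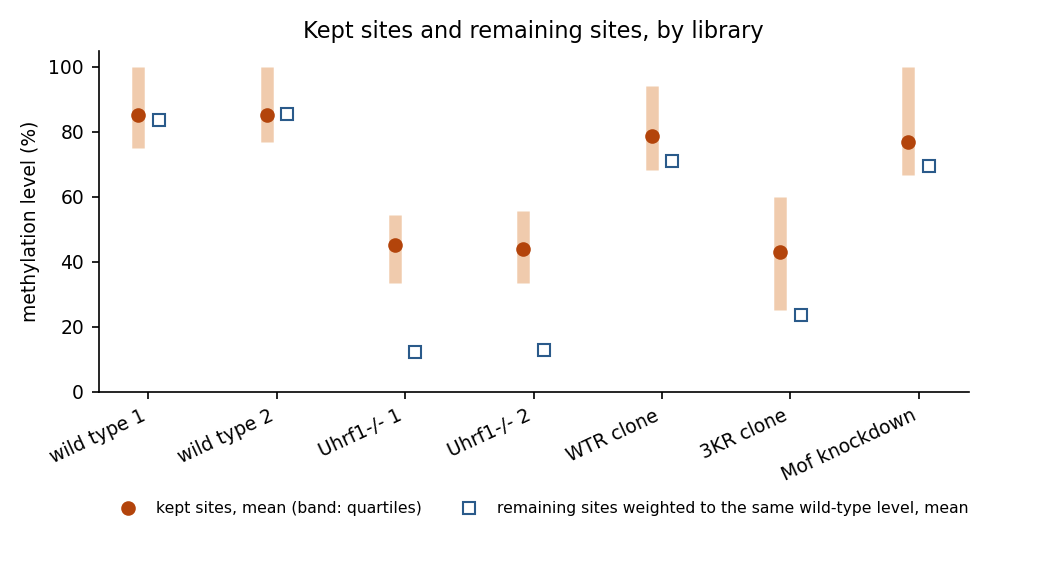
Mean methylation level (%) of the kept sites (circles, with bands from the first to the third quartile) and of the remaining sites weighted to the same wild-type level (squares) in each library. The wild-type means coincide by the weighting, the Uhrf1-/- means differ by the choice of sites, and the 3KR clone shows the widest of the other gaps, 43.1% against 23.7%.

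The level in the 3KR clone rose with the level left in Uhrf1-/-. Among sites at 80% or more in wild type, the 3KR mean was 17.9% where the pooled Uhrf1-/- level was under 5% (563 sites) and 32.9% where it was 20% to 35% (751 sites). It was 41.8% at 35% to 50% (245 sites) and 52.1% at 50% or more (89 sites). Over the same classes the WTR clone went from 74.1% to 81.5% and the Mof knockdown from 72.2% to 87.7%, while the wild-type mean stayed between 90.2% and 93.2%.

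Spread among single sites was wide. The 3KR standard deviation over sites was 18.2 points in the lowest class and 25.5 points in the highest. Across the 3062 sites at 80% or more in wild type, Spearman's rank correlation between the pooled Uhrf1-/- level and the 3KR level was 0.34. Between the Uhrf1-/- libraries themselves it was 0.32, but single libraries hold fewer reads than the pool, so these values are not alike. At the 334 kept sites among them the values were 0.20 and -0.46, and the choice on the pooled level bears on both. These sites share libraries, and those on one fragment share reads, so no p is given.

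**Figure D3:**
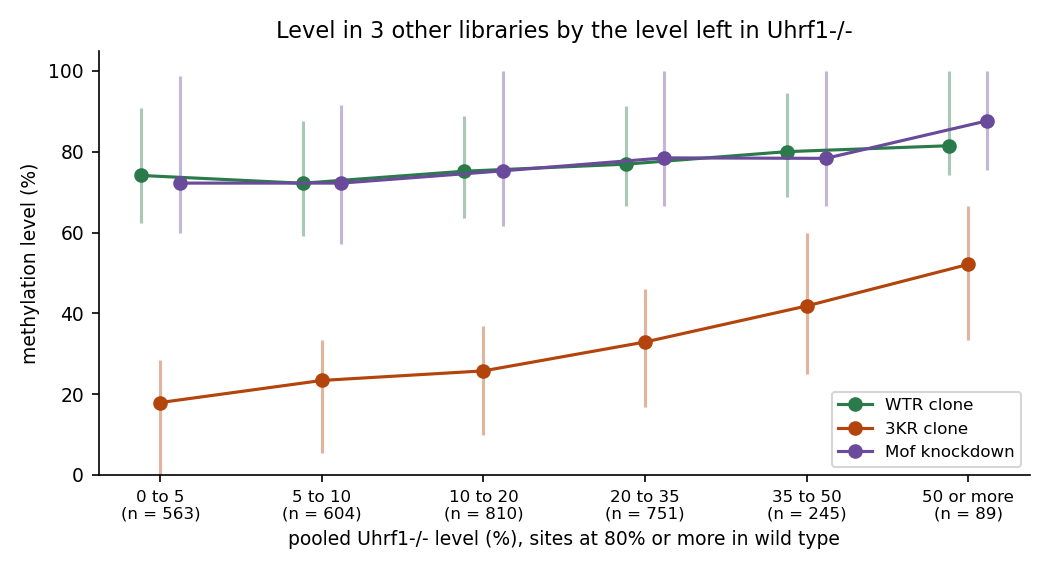
Mean methylation level (%, circles) in the WTR clone, the 3KR clone and the Mof knockdown for 6 classes of the pooled Uhrf1-/- level, at sites of 80% or more in wild type; lines run from the first to the third quartile over sites. Counts under the axis are for the rescues, and the knockdown means rest on 60 to 595 shared sites. The 3KR mean goes from 17.9% to 52.1%.

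Site by site, the 3KR clone was lower than the WTR clone at 388 of the 443 kept sites, higher at 40 and equal at 15. The mean difference was -35.7 points at the kept sites and -47.2 points at the weighted remaining sites. Among the 299 kept sites with at least 10 reads in both rescue clones, the 3KR clone was lower by at least 20 points at 233, which is 77.9% (Wilson 95% interval 72.9% to 82.3%). Of all 11900 sites listed with enough reads 57% were lower by that much. Among those not kept, weighted by wild-type level, it was 84.9%. They include sites with fewer than 10 reads in a Uhrf1-/- library, which the remaining sites leave out. At 5 kept sites, 1.67% (interval 0.716% to 3.85%), the 3KR clone was at least 20 points higher. The share was 0.966% of all sites and 0.901% of those not kept, weighted in the same way.

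Kept sites with at least 10 reads in every library of the rescue table show both ends of this range. Near Emid1, which encodes an extracellular EMI-domain protein, the site at chromosome 11 position 5166602 read 100% and 88.9% in wild-type cells, 62.5% and 38.5% in Uhrf1-/-, 100% in the WTR clone and 13.3% in the 3KR clone. Its 3KR value lay below both Uhrf1-/- libraries. A site near Gm24793 (chromosome 8, 111413245) read 100% and 90.9%, then 30% and 46.7%, then 75.5% and 0% in the same order. Here too the 3KR clone, with 0 of 12 reads methylated, was the lowest library.

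At the opposite end, a site near Pgm2, a phosphoglucomutase gene (chromosome 5, 64079902), read 100% and 60% in wild-type cells, 47.4% and 60% in Uhrf1-/-, 54.5% in the WTR clone and 75% in the 3KR clone. An intronic site of Svopl (chromosome 6, 37988610) read 100% in both wild-type libraries, 40% and 36.4% in Uhrf1-/-, 78.9% in the WTR clone and 90% in the 3KR clone. In these 2 cases the 3KR clone lay above both Uhrf1-/- libraries and above the WTR clone. Among sites with this depth, the 5 highest 3KR minus WTR differences were 10.1 to 23.3 points, and the 5 lowest -86.7 to -75.5 points.

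Against wild type, the WTR clone differed by -6.51 points at the kept sites and by -13.6 points at the weighted remaining sites. The wild-type reads that set the weights also enter these differences, so their counting error bears on both values. How much was not tested. Of 149 kept sites with at least 10 reads in the 3 libraries, 34 were at least 20 points lower. This is 22.8% (interval 16.8% to 30.2%), beside 17% of all 7430 sites and 34.4% of those not kept, weighted as above. Sites counted as not kept here need not have enough Uhrf1-/- reads for the choice. At 9 of the 149 kept sites, 6.04% (interval 3.21% to 11.1%), the rescue was at least 20 points higher. The share was 8.56% of all sites and 3.90% of those not kept, weighted in the same way.

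The Mof knockdown is set against the same wild-type libraries. It differed by -8.89 points from them at the 300 shared kept sites and by -15.5 points at the weighted remaining sites. As for the WTR clone, the wild-type reads behind the weights also enter these differences, and the effect was not tested. Of 92 kept sites with enough reads, 21 were at least 20 points lower, 22.8% (interval 15.4% to 32.4%). The share was 21.2% of all 6679 sites listed with the knockdown and 33.7% of those not kept, weighted as above. Sites counted as not kept here need not be listed with the rescue cells. At 4 of the 92 kept sites, 4.35% (interval 1.70% to 10.7%), the knockdown was higher by that much. The share was 4.36% of all sites and 2.87% of those not kept, weighted in the same way.

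Single kept sites in the knockdown differed in both directions. An intronic site of Hipk2, a homeodomain-interacting kinase gene (chromosome 6, 38785355), read 80% and 100% in wild type and 40% in the knockdown. An exonic site of Rela, which encodes an NF-kB subunit (chromosome 19, 5645351), read 55.6% and 76.9% in wild type and 100% of 30 reads in the knockdown. The same Rela site stood at 40% in each Uhrf1-/- library, 66.3% in the WTR clone and 17.9% in the 3KR clone. Among kept sites with at least 10 reads in each of the 3 libraries of the knockdown table, the 5 lowest knockdown differences lay between -69.8 and -44.4 points and the 5 highest between 19.5 and 33.8 points.

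For the contrast that chose the sites, edgeR's quasi-likelihood test with Benjamini-Hochberg adjustment over 3917 sites is given as a description only. It called 30 of 161 kept sites lower in Uhrf1-/- than in wild-type cells, 18.6%, beside 38% of all sites tested, and nothing is read from this difference. With a wild-type or Uhrf1-/- library left out, 1 library is left in a group, and fewer kept sites or none were called. The same held over all sites tested. No kept site was called higher by edgeR, beside 0 of all 3917 sites. At an unadjusted p under 0.05 edgeR also had no kept site higher, beside 15 of the 3917. Limma on the methylation levels called 1 kept site higher, beside 3 of all 4603 sites.

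Kept sites were found across the genome but seldom near transcript starts or CpG islands. By the annotation in the deposited table, 208 were intronic (47.0%), 142 intergenic (32.1%), 51 exonic (11.5%) and 42 in promoters (9.48%, Wilson 95% interval 7.09% to 12.6%). The weighted remaining sites were 42.9% intronic, 30.3% intergenic, 11.2% exonic and 15.6% in promoters. No kept site lay in a CpG island, which allows a share of up to 0.677%, and 8 lay in island shores (1.81%, interval 0.918% to 3.52%). The weighted shares of the remaining sites were 1.09% and 7.64%. The median distance to a transcript start was 8759 bases at the kept sites and 6553 bases at the weighted remaining sites. This difference of 2206 bases was 784 bases when the sites were chosen on Uhrf1-/- library 2 alone and 802 bases at a threshold of 30%.

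The promoter share depended on how the sites were chosen. Its difference from the weighted share, -6.15 points, was -2.70 points when the choice rested on Uhrf1-/- library 1 alone and -12.6 points for the 28 sites with at least 20 reads in each library. Kept sites made up 3.39% to 7.64% of the sites with enough reads on the autosomes. They were 0 of 51 on chromosome X and 0 of 39 on the mitochondrial chromosome, which allow shares of up to 5.88% and 7.69%.

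**Figure D4:**
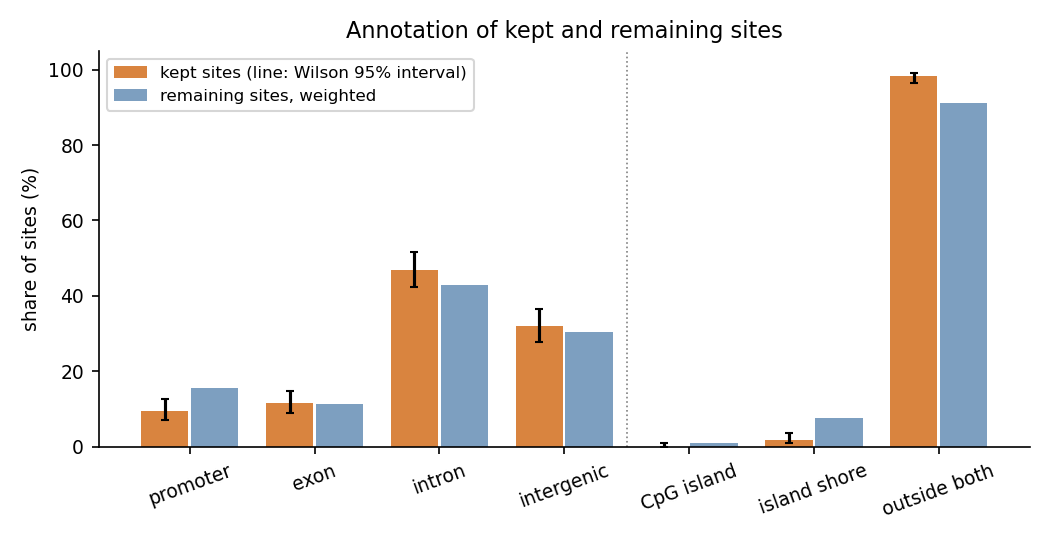
Share of sites (%) in each annotation class for the 443 kept sites (orange, lines are Wilson 95% intervals) and for the remaining sites weighted to the same wild-type level (blue). Classes left of the dotted line divide the sites by gene position and classes right of it by CpG islands; promoters hold 9.48% against 15.6%.

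The excess in the 3KR clone was present in each gene class. It was 23.7 points at introns, 19.2 at exons, 14.9 at intergenic sites and 13.1 at promoters. In the WTR clone the gaps were 7.88, 3.75, 10.1 and 6.27 points in the same order. In the knockdown they were 8.67, 10.6, 4.16 and 6.80 points.

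Of the 443 kept sites, 296 lay inside a RefSeq gene, and counting the nearest gene for the other 147, they fell at 362 genes. The 10 sites with the highest lower limit of the Uhrf1-/- interval lay in or near Mmp28, Prcd, Gm7733, Ttc13, Kank2, Ttn, Dlgap2, Pcid2, Plekhm1 and Gm17177. The intronic site of Mmp28, a matrix metalloproteinase gene (chromosome 11, 83453130), had the highest pooled level, 87.5%. It read 100% in both wild-type libraries, 100% and 81.8% in Uhrf1-/-, 90% in the WTR clone, 46.9% in the 3KR clone and 82.1% in the Mof knockdown. The 3KR clone, with 49 reads, was the lowest library at this site.

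Prcd encodes a protein of photoreceptor discs, and its intronic site (chromosome 11, 116666813) hardly differed between cells. It read 66.7% and 100% in wild-type cells, 78.9% and 68.4% in Uhrf1-/-, and 87.5% in both rescue clones, so the Uhrf1-/- values fell within the range of the wild-type libraries. The exonic site of Ttn, the gene of the sarcomere protein titin (chromosome 2, 76758763), read 100% in wild-type cells, 62.5% and 92.3% in Uhrf1-/-, 100% in the WTR clone and 72.7% in the 3KR clone. Both the Uhrf1-/- and 3KR values lay below the wild-type libraries there.

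Kank2, the gene of an adaptor at cell adhesions, held an intronic site (chromosome 9, 21791151) at 95% and 83.3% in wild type and 100% and 60% in Uhrf1-/-. It read 80.6% of 134 reads in the WTR clone, 33.3% in the 3KR clone and 54.5% in the knockdown, so both of the latter lay below both Uhrf1-/- libraries. Dlgap2, which encodes a postsynaptic scaffold protein, had an intronic site (chromosome 8, 14116967) at 100% in wild-type cells, 90% and 52.9% in Uhrf1-/-, 100% in the WTR clone, 62.5% in the 3KR clone and 100% in the knockdown. The site in an intron of Pcid2, an mRNA export factor gene (chromosome 8, 13080802), read 100% and 50% in wild-type cells, 66.7% and 84.6% in Uhrf1-/- and 100% in both rescue clones. With 5 to 13 reads in each library, no order can be read at Pcid2.

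Among promoter sites the highest level was at Ttc13, 43 bases upstream of the transcript start the table gives (chromosome 8, 124682572). It read 100% in both wild-type libraries, 69.6% and 87.5% in Uhrf1-/-, 50% in each rescue clone and 93.8% in the knockdown. Here both rescue clones lay below both Uhrf1-/- libraries, although the WTR clone had only 8 reads. A second kept site 13 bases away (124682585) stood at 66.7% and 25% in Uhrf1-/-, which is a lower and less even level on largely the same reads.

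Promoter sites of Nampt, the gene of an enzyme of NAD salvage, and Pla2g5, a secreted phospholipase gene, behaved differently from Ttc13. The Nampt site (chromosome 12, 32818670) read 75% and 100% in wild-type cells, 60% and 50% in Uhrf1-/-, 100% of 6 reads in the WTR clone and 0% of 5 reads in the 3KR clone. The Pla2g5 site (chromosome 4, 138827672) read 100% and 70%, then 50% and 53.3%, then 81.2% of 32 reads and 0% of 15 reads in the same order. At both, the 3KR clone was the lowest library.

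At 16 kept sites the pooled Uhrf1-/- level exceeded the pooled wild-type level, and 4 were under 10% in wild type. The promoter site of Stk11ip, which encodes a protein that binds the kinase LKB1 (chromosome 1, 75530566), read 0% in both wild-type libraries with 12 and 6 reads. It read 53.3% and 60% in Uhrf1-/-, 93.3% in the WTR clone and 21.4% in the 3KR clone, so all 4 libraries of the Uhrf1-/- background were above wild type. An intronic site of Zfp536 (chromosome 7, 37392508) likewise read 0% in both wild-type libraries, 40% and 33.3% in Uhrf1-/-, 44.4% in the WTR clone and 17.4% in the 3KR clone. With 6 and 10 wild-type reads, the Zfp536 values are coarse.

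The sites next to kept sites are described next. Within 100 bases on the same strand, 327 kept sites (73.8%) had a neighbour with enough reads, beside 79.8% of the weighted remaining sites. The neighbours averaged 21.6% in Uhrf1-/-, beside 13.7% for neighbours of the weighted remaining sites, and 28.1% beside 23.5% in the 3KR clone. In wild type the neighbours stood at 80.9% beside 77.2%, so they were not matched on the wild-type level. A kept neighbour was present at 37.3% of these kept sites, beside 14.1% of the weighted remaining sites. Neighbours lie largely on the same reads that chose the kept sites, so their Uhrf1-/- values are tied to the choice and support nothing. Of the 327 sites, 301 also had a neighbour that was not kept.

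Sites at most 500 bases apart were joined into runs: 317 kept sites stood alone, 45 runs held 2 sites and 11 held 3 or more. The longest, near Gm11468 (chromosome 2, 166268858 to 166268967), held 5 kept sites. Its mean was 66.7% and 86.7% in wild-type cells, 56.3% and 43.2% in Uhrf1-/-, 64.5% in the WTR clone and 14.5% in the 3KR clone. The 4 kept sites near Gm24376 (chromosome 4, 44403713 to 44403820) averaged 90.6% and 78.6%, 45.8% and 30%, 77.5% and 5.26% in the same order, and 41.0% in the knockdown. In both runs the 3KR clone was the lowest library. The span near Gm24376 held 8 sites with enough reads, so its means leave out sites that were not kept.

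In other runs the 3KR clone held as much as the Uhrf1-/- libraries or more. The 3 sites near Gm7733 (chromosome 3, 35489272 to 35489276) averaged 86.7% and 100% in wild-type cells, 66.7% in each Uhrf1-/- library, 93.3% in the WTR clone, 68.5% in the 3KR clone and 100% in the knockdown. The 3 sites near Gm30223 (chromosome 3, 16799653 to 16799679) averaged 46.7% and 72.2% in Uhrf1-/- and 77.8% in the 3KR clone. Reads in these runs numbered 5 to 20 per library, and all sites of a run rest on nearly the same reads.

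Runs inside genes were found in Inpp4a, a phosphoinositide phosphatase gene, Plxnc1, a semaphorin receptor gene, Tmem104, Trio, a guanine nucleotide exchange factor gene, and Mgmt, a gene for repair of alkylated guanine. In Mgmt the 3 intronic sites (chromosome 7, 137007785 to 137007797) averaged 100% and 98.5% in wild-type cells, 53.8% and 33.3% in Uhrf1-/-, 81.8% in the WTR clone, 47.5% in the 3KR clone and 92.6% in the knockdown. The run at a Trio promoter (chromosome 15, 27741449 to 27741523) averaged 100% and 96.7%, 60% and 46.2%, 86.8%, 48.0% and 51.1% in the same order. The knockdown was as low as the Uhrf1-/- libraries at Trio, on 5 to 6 reads, and not at Mgmt. Spans in Plxnc1, Tmem104 and Trio each held 4 sites with enough reads, of which 3 were kept.

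**Figure D5:**
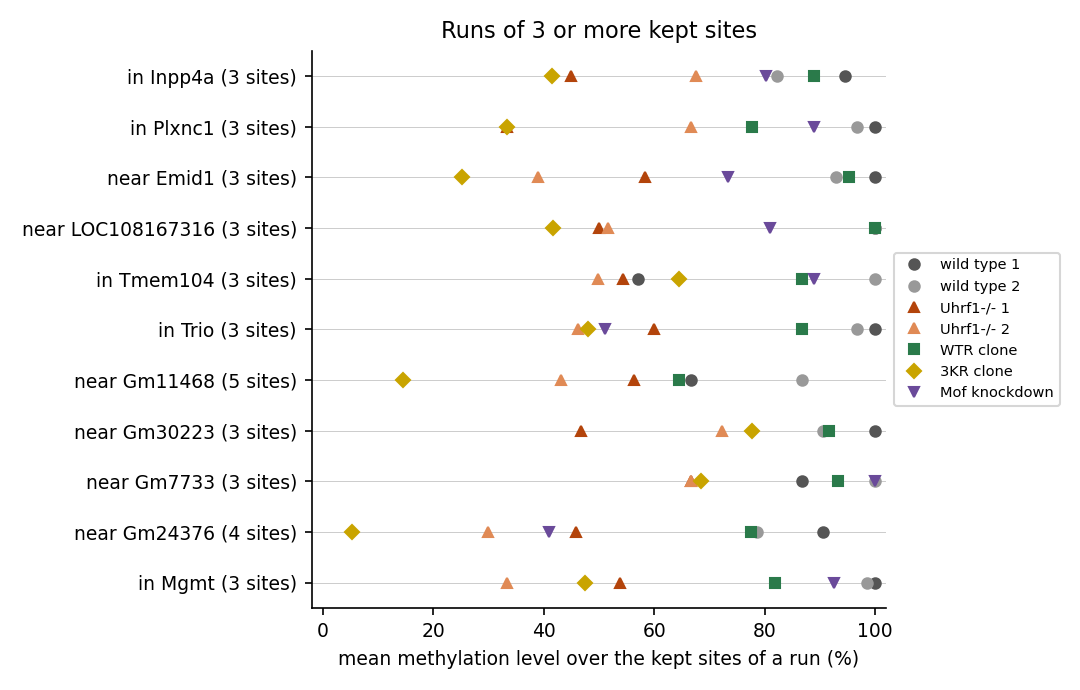
Mean methylation level (%) over the kept sites of each of the 11 runs with at least 3 kept sites, by library (symbols); the runs near Gm11468 and Gm30223 were not listed with the knockdown, and some symbols overlap. Wild-type and WTR means lie right of the Uhrf1-/- means in each of the 11 runs, and the 3KR mean ranges from 5.26% near Gm24376 to 77.8% near Gm30223.

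Gene lists tied to methylation were read against the share over all sites with enough reads, of which 4.73% were kept. Imprinted genes are expressed from one parental copy and carry methylation on the other. Of 28 sites at 9 of 59 listed imprinted genes, 1 was kept, 3.57%, in an intron of Ppp1r9a, which encodes the actin-binding protein neurabin. It read 100% in both wild-type libraries, 38.9% and 54.5% in Uhrf1-/-, 63.6% in the WTR clone, 50% in the 3KR clone and 100% in the knockdown. Over all 28 sites the Uhrf1-/- mean was 8.08%. With so few sites, a share near the general one says nothing particular about imprinted genes.

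None of 8 sites at germline genes and none of 5 at pluripotency genes was kept, with Uhrf1-/- means of 4.21% and 9.57%, and both lists are too small to set against the general share. Olfactory and vomeronasal receptor genes had 1 kept site of 31, 3.23%, next to the pseudogene Vmn1r-ps151. Zinc finger protein genes had 5 of 133, 3.76%, at Zfp451, Zfp982, Zfp260, Zfp536 and Zfp423. Both shares lie near the 4.73% over all sites. The pooled Uhrf1-/- levels of the zinc finger sites ran from 36.4% at Zfp536 to 53.7% at Zfp982. No site with enough reads fell at the listed genes of the methylation machinery or at clustered protocadherins.

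The threshold itself cut through a continuous range. The 5 sites just inside it were all at 35% (14 of 40 reads) and lay in or near Plxdc1, LOC115488223, Rubie, Crebbp and Dmrt1. Of those just outside, 4 at 34.8% lay in or near Gm8176, Tmem169, Tmem37 and Tbc1d10a. The Uhrf1-/- libraries differed on both sides of it: inside, they read 68.4% and 4.76% near LOC115488223 and 33.3% and 40% at Crebbp, and outside, 55.6% and 21.4% at Tmem169 and 33.3% and 36% at Tbc1d10a.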

How the data were processed

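The authors deposited, per the file headers, read counts per cytosine and strand (total, methylated, unmethylated), a methylated fraction, p-values and q-values against wild type, and a difference score in percentage points, in 2 tables. BSMAP 2.73, cutadapt, Trim Galore and build mm10 are named in the submitters' processing notes; the order, settings, methylation caller and test: not given in the sources used here. As for the fraction, p-value, q-value and score columns deposited by the authors, none was used: levels were recomputed from the counts. Members and lists were chosen with earlier results of these data known.

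Levels are unweighted means over sites. Groups follow the sample titles. The remaining sites were weighted by 10-point classes of the pooled wild-type level. Differences of at least 20 points were counted where every library compared had 10 reads or more; single-library groups got no main test. edgeR 4.0.16 (limma 3.58.1, R 4.3.3) was fitted to all 6 rescue-table libraries on sites with at least 10 reads in the 4 compared and more than one value, adjusted by Benjamini-Hochberg, called at 0.05 and 20 points, and tested on simulated data. An exact permutation test of 2 against 2 cannot go below p = 0.333. Wilson 95% intervals and limits from a count of 0 (3 counts) cover counting error only; reads carry no molecular identifiers. A chi-square per site averaged 2.85 between wild-type and 2.17 between Uhrf1-/- libraries, where sampling gives 1, so no library is a copy. Genes are RefSeq spans or nearest genes in mm10, without regard to strand; sites of opposite strands were never both kept or listed at a kept site (0 cases). Named sites were the 10 highest by lower Wilson limit, runs of 3 or more, the 10 highest promoter sites, list members, the 5 extremes of each other difference, and 5 either side of the threshold, of which 1 is not reported here; examples are printed from these. Alternatives covered thresholds, depth, weighting, tools, the replicate block and each library left out. Python 3.11.15, numpy 2.4.6, pandas 2.3.3, scipy 1.17.1 and matplotlib 3.10.9 did the rest.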

Additional observations from a re-analysis of the deposited data

How the results depend on the processing

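Of the alternatives run, 81 values stayed within the spread or the interval set for them, which can be wide. Of the others, 30 moved beyond it and 5 lost calls. A turn of direction was looked for only in the level gaps, the promoter and island differences and the distance difference. None of these turned. The number of kept sites moved under all 7: 1042 and 28 with minimums of 5 and 20 reads, 712 and 118 at thresholds of 30% and 50%, 799 and 893 on one Uhrf1-/- library alone, and 174 when each library had to reach 35%. The 3KR gap (19.4 points) was 24.8 at 50% and 14.6 with 10 reads in every library, and 13.4 to 20.6 with a library left out. The Mof knockdown gap was 16.3 at 50% and 12.02 with 35% in each library, but 3.65 at 20 reads (20 shared sites), where the island difference (-1.09 points) was -0.345. The promoter difference (-6.15 points) was -12.6 at 20 reads, -2.98 at 30%, and -6.99 to -2.70 with a library left out. The distance difference (2206 bases) was 5404 at 20 reads and 3990 with 10 reads in every library, but 802 at 30%, and 784 to 2543 with a library left out. Without weighting, the gaps were 36.2, 29.7 and 39.6 points in the WTR clone, the 3KR clone and the knockdown, -26.2 for promoters, -12.6 for islands and 6134.5 bases. Sites chosen on one Uhrf1-/- library at 50% stood at 29.8% in the other. At 30 points, 12.1% of kept sites were lower in the WTR clone than in wild type, beside 9.23% of all 7430 sites. Fisher's exact test, which takes reads as separate, called 11.96% of kept sites lower in the knockdown, beside 9.39% of all 6679 sites. edgeR with borrowed spread left the kept sites uncalled for the 3KR against WTR, WTR and knockdown contrasts, each with 1 library in a group. It left nearly all other sites uncalled too, so this says nothing particular about the kept sites. The cause of these moves was not tested.

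For Uhrf1-/- against wild type, the replicate block gave 6 calls instead of 30, and 0 to 7 were left with a library out. Limma gave 38 lower and 1 higher. Same-numbered libraries deviated together with a correlation of 0.0153 over 4603 sites, from 2 pairs. The labels give them only a shared number. With so few pairs and reads, this value cannot exclude a shared batch or culture. At 10 reads, 1 read is worth 10 points.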
